A study of Homo sapiens with 6 samples.

Results

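The 10 genes described here include those of enzymes that make, recycle and use glutathione (GCLC, GCLM, GSS, GSR, GPX1 and GPX4). The others encode GPX8, of the glutathione peroxidase family, the superoxide dismutases SOD1 and SOD2, and catalase (CAT). The 10 genes were chosen by name from 33890 genes in the deposited table, and all 10 are in it. The table was made from messenger RNA of LN229, an established human line of grade IV glioma. It holds 3 libraries of untreated cells (control) and 3 of cells kept for 48 h in 800 µM ursodeoxycholic acid (UDCA), a hydrophilic bile acid given to patients with cholestasis, and the single comparison is UDCA against control. Cells of both groups grew in DMEM with fetal bovine serum and antibiotics. A line is 1 tumour's descendants, so the 6 libraries sample 1 genetic background, and whether each library had a culture of its own is not given in the labels. The p-values therefore measure only the spread between these libraries, which may be technical.

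Glutathione is a tripeptide and the main small thiol of the cell. Glutamate-cysteine ligase, a dimer of a catalytic subunit (GCLC) and a modifier subunit (GCLM), joins glutamate to cysteine in the rate-limiting step. Glutathione synthetase (GSS) adds glycine, peroxidases spend the product on hydrogen peroxide and lipid peroxides, and glutathione reductase (GSR) regenerates it with NADPH. Superoxide dismutases turn superoxide into hydrogen peroxide, SOD1 in the cytosol with copper and zinc and SOD2 in the mitochondrial matrix with manganese, and catalase breaks hydrogen peroxide down in peroxisomes.

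The 3 peroxidases differ in their active site, and the coding sequence shows how. GPX1 and GPX4 are selenoproteins, in which an in-frame TGA codon is read as selenocysteine, while GPX8, a peroxidase of the endoplasmic reticulum, has a cysteine there. Below are 63 bases of coding sequence around that codon, 5′ to 3′ on the coding strand, from GENCODE 29 transcripts (GRCh38), with the codon in capitals. The codon lies at chr3:49358132-49358134 (minus strand) in GPX1, at chr19:1105403-1105405 (plus strand) in GPX4 and at chr5:55161024-55161026 (plus strand) in GPX8, where it was placed by alignment of the translated sequence with that of GPX4.
GPX1: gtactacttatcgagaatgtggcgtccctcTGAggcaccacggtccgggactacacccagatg
GPX4: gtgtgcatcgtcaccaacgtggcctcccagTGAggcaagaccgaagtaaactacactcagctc
GPX8: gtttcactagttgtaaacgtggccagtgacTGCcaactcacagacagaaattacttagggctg
It is codon 49 of 203 in GPX1, codon 73 of 197 in GPX4 and codon 79 of 209 in GPX8. The enzymes with the TGA codon moved in opposite directions with UDCA, and the enzyme with TGC in its place did not pass the test, as described further on.

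The subunits of the ligase both rose, so the sequence before a RefSeq transcript start of each gene is shown as well. RefSeq (GRCh38.p14) gives 12 windows of 300 bases around transcript starts for 7 of the 10 genes, and 1 window each for GCLM and GCLC. The 250 bases before the start are printed 5′ to 3′ on the gene's strand, with motif matches in capitals: chr1:93909431-93909680 (minus strand) for GCLM and chr6:53545102-53545351 (minus strand) for GCLC.
GCLM: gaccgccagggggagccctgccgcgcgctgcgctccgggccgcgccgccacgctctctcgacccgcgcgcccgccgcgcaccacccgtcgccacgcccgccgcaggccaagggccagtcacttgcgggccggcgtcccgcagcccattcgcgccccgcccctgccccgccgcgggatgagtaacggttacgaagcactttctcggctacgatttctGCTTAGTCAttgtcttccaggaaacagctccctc
GCLC: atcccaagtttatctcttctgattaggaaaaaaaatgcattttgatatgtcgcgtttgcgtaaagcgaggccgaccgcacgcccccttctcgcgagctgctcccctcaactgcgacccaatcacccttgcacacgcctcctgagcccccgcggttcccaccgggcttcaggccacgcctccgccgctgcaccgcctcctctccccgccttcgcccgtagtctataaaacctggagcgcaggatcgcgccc
The capitals in GCLM are the reverse complement of TGACTAAGC, which matches TGACNNNGC, the core of the antioxidant response element, and begins 34 bases before the start. On either strand that core is present in 13.3% of 35116 RefSeq windows of the same length, and in 1 of the 12 windows of these genes. TGATGNAA, the core of the element bound by ATF4 and CEBP factors, is in 3.62% of all windows and in the GPX8 window, 189 bases before the start. TGANTCA, the AP-1 site, is in 7.71% of all windows and the kappaB site in 11.3%, and neither is in a window of these genes, the 4 of SOD2 included. The motifs were searched on both strands, and TGACNNNGC and TGANTCA can overlap. A match is a description of letters and does not show binding.

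Levels are given as FPKM, reads per kilobase of merged exon length, scaled to the size of the library, which allows genes to be compared within a library. The merged length counts every annotated exon of a gene, 16493 bases for SOD2 and 8646 for GCLC against 1430 for GPX1, so a gene with many annotated exons that the cells do not use is understated against the others. A log2 change is the UDCA mean less the control mean of log2(FPKM + 1), tested with limma and adjusted over all 14380 genes tested. All 10 genes passed the filter on low values (at least 1 FPKM in at least 3 libraries).

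Of the 10 genes, 5 were higher with UDCA (SOD2, GCLM, GSR, GCLC and GPX4), 4 were lower (GPX1, GSS, CAT and SOD1) and GPX8 did not pass. In all genes tested 80.8% were called in either direction, 45.1% higher and 35.7% lower, so 9 called of 10 is near the background and the number is not a result about these genes. Their median log2 change was 0.12, against 0.10 over all genes tested. Control and UDCA libraries did not overlap in 9 of the 10, where 82.8% of all genes tested did not overlap. A change of at least 2-fold by the ratio of means was found in 6 of the 10 and in 34.3% of all genes tested.

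**Figure D1:**
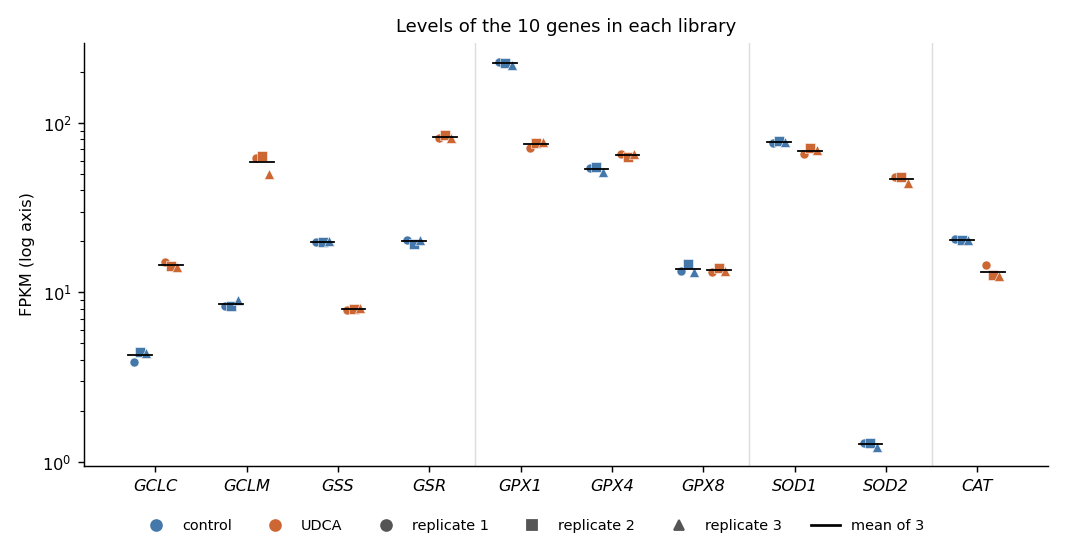
Level of each of the 10 genes in FPKM on a log axis, with 1 point per library (marker shape gives the replicate number) and a bar for the mean of 3 libraries. GPX1 is the highest gene in control and SOD2 the lowest; with UDCA GSR leads and GSS is lowest, and the 3 control and 3 UDCA points overlap for GPX8 alone.

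Recovered reads came to between 15988951 and 17743022 per library, so depth was alike in the groups, and 3 reads in a gene of 1 kb equal 0.169 to 0.188 FPKM. Replicates differed by more than sampling noise, with a chi-square per degree of freedom of 1.68 to 1.94 between control libraries and 1.67 to 2.73 between UDCA libraries, where UDCA replicate 3 was furthest. Of 8 glial and glioma markers 6 had a mean of at least 1 FPKM, while GFAP and SOX9, defining genes of astrocytes, did not. The marker list summed to 742 to 759 FPKM in control and 155 to 158 FPKM with UDCA. Its members did not move alike, as 2 genes outside the rule for named genes show. S100B went from 286 ± 10.1 to 12.5 ± 0.0593 FPKM, while OLIG2 did not pass, at 4.59 ± 0.509 and 4.81 ± 0.160 FPKM. Markers of immune, epithelial and endothelial cells summed to at most 0.682 FPKM per list in any library. In bulk RNA, fewer cells of a kind and less RNA per cell cannot be told apart, and the part of the marker shift in the results below was not tested.

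Glutathione synthesis split between its steps: both ligase subunits rose and the synthetase fell. GCLM (ENSG00000023909, chromosome 1, 93885205 to 93909456), the modifier subunit, stood at 8.37, 8.27 and 8.97 FPKM in control replicates 1 to 3 and at 61.9, 64.2 and 50.0 FPKM in UDCA replicates 1 to 3. Every UDCA library lay far above every control library, and UDCA replicate 3 was the lowest of its group. The mean rose 6.88-fold, from 8.54 ± 0.381 to 58.7 ± 7.63 FPKM (SD, n = 3 per group), with a log2 change of 2.64 (SE 0.0921, limma adjusted p = 2.88e-07). Without UDCA replicate 3 the log2 change was 2.75. Only 1.00% of all genes tested had a larger log2 change.

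GCLC (ENSG00000001084, chromosome 6, 53497341 to 53616970), the catalytic subunit, stood at 3.91, 4.44 and 4.39 FPKM in control and at 15.2, 14.3 and 14.2 FPKM with UDCA. The groups did not overlap. Its mean rose 3.43-fold, from 4.25 ± 0.291 to 14.6 ± 0.564 FPKM, with a log2 change of 1.57 (SE 0.0526, limma adjusted p = 2.4e-07). Of its exon bases 6.20% lie in exons of other annotated genes, AL033397.1 on the same strand and AL033397.2 on the opposite one.

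The modifier subunit gained on the catalytic one. The ratio of GCLM to GCLC was 2.14, 1.86 and 2.04 in control libraries and 4.08, 4.49 and 3.53 in UDCA libraries, without overlap. The log2 ratio rose by 1.07, with an exact two-sided permutation p = 0.1, which is the smallest that 3 against 3 libraries can give. The same holds for each of the 7 gene pairs compared, all with adjusted p = 0.1 over the pairs, so none of these ratios can pass at 0.05. Together the subunits went from 12.8 ± 0.546 to 73.3 ± 7.91 FPKM, with GCLM making up 66.8% ± 1.56 of the sum in control and 80.0% ± 1.95 with UDCA.

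GSS (ENSG00000100983, chromosome 20, 34928433 to 34956027), which completes glutathione, stood at 19.8, 19.9 and 20.1 FPKM in control and at 7.87, 7.98 and 8.08 FPKM with UDCA. Its replicates lay close together, with a coefficient of variation of 0.946% in control and 1.32% with UDCA. GSS fell 2.50-fold, from 19.9 ± 0.188 to 7.98 ± 0.105 FPKM, a log2 change of -1.22 (SE 0.0270, limma adjusted p = 3.37e-08), and 8.97% of all genes tested had a lower log2 change. The order of the first and the last enzyme was thereby turned over: the ratio of GSS to GCLC was 4.48 to 5.05 in control libraries and 0.518 to 0.571 in UDCA libraries.

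GSR (ENSG00000104687, chromosome 8, 30678061 to 30727999), the NADPH-dependent reductase that recycles oxidized glutathione, stood at 20.5, 19.4 and 20.3 FPKM in control and at 81.2, 84.8 and 81.5 FPKM with UDCA. It was level with GSS in control and became the highest of the 10 genes in the treated libraries, on 15521 reads summed over its libraries against 3895 in control. GSR rose 4.11-fold, from 20.1 ± 0.581 to 82.5 ± 1.99 FPKM, a log2 change of 1.99 (SE 0.0299, limma adjusted p = 6.57e-09). The ratio of GSR to GSS was 0.977 to 1.04 in control libraries and 10.1 to 10.6 in UDCA libraries.

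Among the peroxidases the most abundant one fell. GPX1 (ENSG00000233276, chromosome 3, 49357171 to 49358600), the cytosolic and mitochondrial enzyme that reduces hydrogen peroxide, stood at 229, 227 and 219 FPKM in control and at 71.5, 76.2 and 76.9 FPKM with UDCA. In control it was the highest of the 10 genes and higher than 99.3% of all genes tested. GPX1 fell 3.00-fold, from 225 ± 5.45 to 74.9 ± 2.93 FPKM, a log2 change of -1.57 (SE 0.0336, limma adjusted p = 2.89e-08). GENCODE 29 types this gene as a polymorphic pseudogene although it encodes the enzyme, and 2 processed copies are annotated by name; GPX1P1, the one in the table, had 48 reads summed over control and 10 summed over UDCA libraries, where GPX1 had 16574 and 5359.

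GPX4 (ENSG00000167468, chromosome 19, 1103926 to 1106791), the peroxidase that reduces lipid hydroperoxides in membranes and restrains ferroptosis, stood at 53.8, 54.8 and 51.6 FPKM in control and at 65.8, 62.7 and 65.97 FPKM with UDCA. The groups were close and did not overlap. GPX4 rose 1.21-fold, from 53.4 ± 1.64 to 64.8 ± 1.83 FPKM, a log2 change of 0.27 (SE 0.0317, limma adjusted p = 0.000157). That change is small: 72.2% of all genes tested changed more in size, and scaling by the median ratio of genes brought it to 0.16 (adjusted p = 0.00288).

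GPX8 (ENSG00000164294, chromosome 5, 55160118 to 55167071) stood at 13.5, 14.8 and 13.2 FPKM in control and at 13.2, 13.9 and 13.4 FPKM with UDCA, with overlapping groups. Its log2 change was -0.03 with a 95% interval of -0.14 to 0.08, which as a ratio of FPKM + 1 runs from 0.906 to 1.05 (limma adjusted p = 0.52). GPX8 was called lower under median-ratio scaling (-0.14, adjusted p = 0.022) and quantile normalization (-0.13, adjusted p = 0.0279), and its sign turned without control replicate 2 (0.012). No direction can therefore be given for GPX8.

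The balance of the 3 peroxidases shifted as GPX1 fell. Their summed level went from 292 ± 7.40 to 153 ± 2.87 FPKM. GPX1 made up 77.0% ± 0.403 of the sum in control and 48.9% ± 1.22 with UDCA, and GPX4 18.3% ± 0.180 and 42.3% ± 1.33. The ratio of GPX1 to GPX4 was 4.13 to 4.25 in control libraries and 1.09 to 1.22 in UDCA libraries, so GPX1 stayed ahead in each library by FPKM. That order with UDCA depends on the merged lengths, 1430 bases for GPX1 and 2019 for GPX4. On reads GPX4 was ahead in each UDCA library, with 2123, 2158 and 2261 against 1635, 1858 and 1866 for GPX1. The ratio of GPX8 to GPX4 was 0.250 to 0.269 in control and 0.201 to 0.221 with UDCA.

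**Figure D2:**
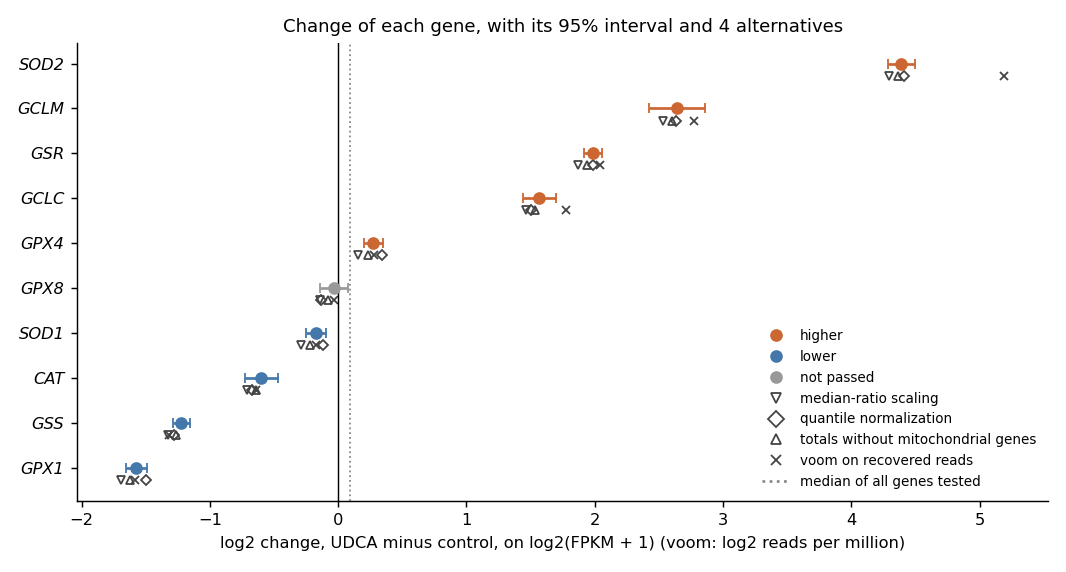
Log2 change of each of the 10 genes, UDCA minus control, with its 95% interval (circles, coloured by the limma call) and, below each circle, the value under 4 alternatives; the dotted line is the median of all genes tested, 0.10. SOD2 is furthest to the right at 4.39 and GPX1 furthest to the left at -1.57, and the interval of GPX8 covers 0.

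The superoxide dismutases moved apart. SOD2 (ENSG00000112096, chromosome 6, 159669057 to 159745186), the mitochondrial manganese enzyme, stood at 1.30, 1.30 and 1.23 FPKM in control and at 47.9, 48.0 and 44.0 FPKM with UDCA. It was the lowest of the 10 genes in control, above 12.3% of all genes tested, and stood above 94.5% of them in the treated libraries. On reads it went from 356, 369 and 359 to 12637, 13491 and 12325, the most of the 10 genes. SOD2 rose with a log2 change of 4.39 (SE 0.0438, limma adjusted p = 1.14e-09), and 0.0974% of all genes tested had a larger one. The pseudocount compresses this value, which was 5.09 with a pseudocount of 0.1 and 5.19 with voom on recovered reads. A second annotated gene of the same symbol (ENSG00000285441) overlaps it and held 2 reads summed over control and 3 over UDCA libraries; 6.93% of SOD2 exon bases lie in exons of that gene or of WTAP on the opposite strand.

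SOD1 (ENSG00000142168, chromosome 21, 31659622 to 31668931), the cytosolic copper-zinc enzyme, stood at 76.3, 78.7 and 76.7 FPKM in control and at 65.7, 71.0 and 68.8 FPKM with UDCA. The highest UDCA library was below the lowest control library. SOD1 fell 1.13-fold, from 77.3 ± 1.28 to 68.5 ± 2.68 FPKM, a log2 change of -0.17 (SE 0.0319, limma adjusted p = 0.00191). The size of this fall is small beside that of most genes, since 82.1% of all genes tested changed more. Median-ratio scaling made it -0.29.

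Per kilobase of merged exons, the ratio of SOD2 to SOD1 was 0.0160 to 0.0170 in control libraries and 0.640 to 0.729 in UDCA libraries. The level of this ratio depends on the merged lengths, 16493 bases for SOD2 and 2019 for SOD1, and its change does not. The sum of both genes went from 78.6 ± 1.30 to 115 ± 3.38 FPKM, and the share of SOD2 in it from 1.62% ± 0.0486 to 40.5% ± 1.59. SOD1 thus remained the larger part by FPKM, whereas SOD2 had more reads than SOD1 in each UDCA library.

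CAT (ENSG00000121691, chromosome 11, 34438925 to 34472062), the peroxisomal catalase, stood at 20.7, 20.3 and 20.4 FPKM in control and at 14.4, 12.6 and 12.6 FPKM with UDCA. Control libraries were close together and UDCA replicate 1 was the highest of its group, still below each control library. CAT fell 1.55-fold, from 20.5 ± 0.182 to 13.2 ± 1.05 FPKM, a log2 change of -0.60 (SE 0.0527, limma adjusted p = 3.55e-05). The ratio of CAT to SOD1 was 0.258 to 0.271 in control and 0.178 to 0.220 with UDCA.

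**Figure D3:**
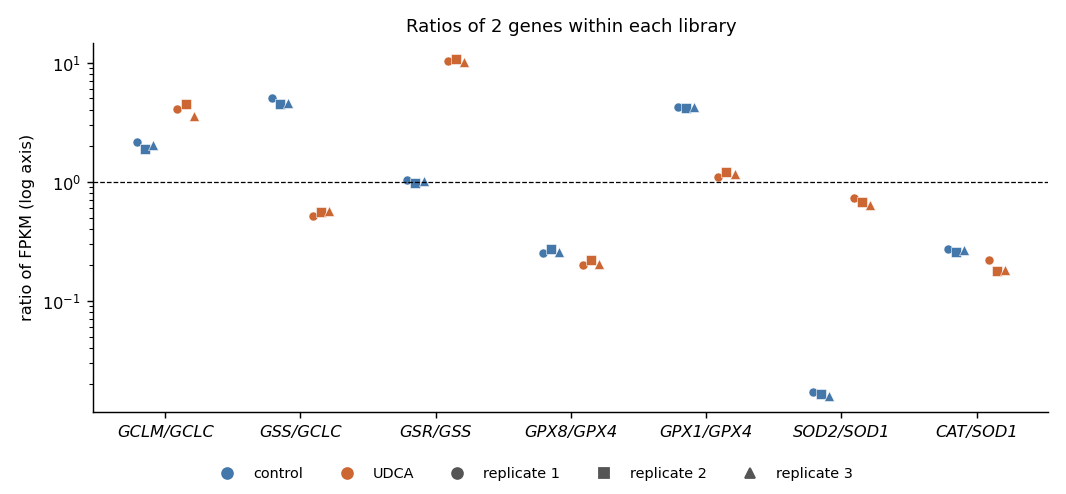
Ratio of FPKM of 2 genes within each library on a log axis, for the 7 pairs compared, with 1 point per library; the dashed line marks a ratio of 1. Control and UDCA points do not overlap in any pair, and GSR/GSS and SOD2/SOD1 are furthest apart.

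The order of the 10 genes by level changed with the treatment. In control it ran GPX1, SOD1, GPX4, CAT, GSR, GSS, GPX8, GCLM, GCLC, SOD2, where the libraries of CAT and GSR, and of GSR and GSS, overlapped. With UDCA it ran GSR, GPX1, SOD1, GPX4, GCLM, SOD2, GCLC, GPX8, CAT, GSS, where the neighbours SOD1 and GPX4, GPX4 and GCLM, and GPX8 and CAT overlapped. Between replicates the coefficient of variation of these genes had a median of 2.98% in control and 3.89% with UDCA. It was largest for GCLM with UDCA, at 12.999%, where counting error alone gives 1.37%.

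Genes whose 6 values moved most like SOD2, by the Euclidean distance between log2 profiles centred on their means over 6 libraries, were HMOX1 (distance 0.123), STC2 (0.156) and STK32A (0.178). HMOX1, heme oxygenase 1, went from 4.85 ± 0.218 to 127 ± 1.62 FPKM. STC2, a secreted glycoprotein, reached 116 ± 1.80 FPKM, and the kinase gene STK32A went from 0.243 ± 0.0339 to 23.0 ± 0.289 FPKM. Those most like GPX1 were HOXB7 (0.0458), LANCL2 (0.0581) and CTSV (0.0645). HOXB7, a homeobox gene, went from 27.1 ± 1.02 to 8.42 ± 0.206 FPKM and LANCL2, of the lanthionine synthetase-like family, from 7.69 ± 0.0643 to 1.99 ± 0.0988 FPKM. CTSV, a cathepsin gene, went from 2.13 ± 0.106 to 0.0592 ± 0.0179 FPKM. The distance is on the log2(FPKM + 1) scale, which compresses low values, so CTSV and STK32A lie near on it although their FPKM ratios are larger than those of GPX1 and SOD2.

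Of 91 further genes around glutathione, written in 8 lists, 86 were in the table and 69 were tested: 38 were higher, 20 lower and 11 did not pass. Their median log2 change was 0.22. The called share, 58 of 69, is near the 80.8% of all genes tested, of which 45.1% were higher and 35.7% lower. Median-ratio scaling gave 32 higher and 26 lower in these lists. The lists are described in turn by their counts.

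Genes that supply cysteine and glutamate were higher in 6 of 8 cases tested and lower in 2 (median 1.35). SLC7A11, the cystine side of the cystine/glutamate exchanger, rose 3.04-fold from 15.4 ± 0.493 to 46.8 ± 4.87 FPKM (limma adjusted p = 1.39e-06), with 8.97% of its exon bases in an antisense gene; it is outside the rule for named genes. Its heavy chain SLC3A2 rose 3.33-fold from 94.1 ± 0.668 to 313 ± 10.3 FPKM. CTH, which makes cysteine from cystathionine, rose 6.01-fold from 2.59 ± 0.477 to 15.6 ± 1.20 FPKM. In the other direction, SLC1A1, a transporter of glutamate and cysteine, fell 8.39-fold from 16.8 ± 0.448 to 2.001 ± 0.218 FPKM, and the neutral amino acid transporter SLC1A4 fell 2.08-fold from 59.2 ± 0.964 to 28.5 ± 0.315 FPKM.

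Genes of glutathione breakdown and transport moved in both directions: of 11 tested, 6 were higher and 3 lower (median 0.24). The cytosolic gamma-glutamylcyclotransferases, which cleave glutathione, moved in opposite directions: CHAC1 rose 17.1-fold from 3.05 ± 0.250 to 52.2 ± 1.03 FPKM, while CHAC2 fell 3.90-fold from 10.0 ± 0.415 to 2.56 ± 0.819 FPKM. OPLAH, which opens 5-oxoproline to glutamate, rose 2.78-fold from 2.49 ± 0.340 to 6.91 ± 0.692 FPKM. GGCT, a related cyclotransferase, was 1.96-fold lower (5.53 ± 1.09 against 2.82 ± 0.436 FPKM) and shares 27.6% of its exon bases with AC005154.5 on the same strand.

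Genes listed as sources of NADPH, the reductant GSR needs, were higher in 7 of 9 cases tested and lower in 2 (median 1.77). The higher ones include ME2 (log2 change 1.77, the list's median) and MTHFD2 (2.13), both outside the rule for named genes. These 2 enzymes work mainly with NAD, so the count and median are not of NADPH supply alone. Of the exon bases of MTHFD2, 33.2% lie in genes of the opposite strand. IDH1, the cytosolic isocitrate dehydrogenase, rose 10.2-fold from 18.7 ± 0.489 to 191 ± 1.46 FPKM (limma adjusted p = 3.78e-10), and ALDH1L2, a mitochondrial folate enzyme, rose 11.8-fold from 2.12 ± 0.224 to 24.9 ± 1.54 FPKM. The 2 lower were both mitochondrial, as are ALDH1L2, ME2 and MTHFD2, which were higher. NNT, the transhydrogenase of the inner membrane, fell 3.39-fold from 15.9 ± 0.458 to 4.70 ± 0.137 FPKM, and IDH2 fell 2.58-fold from 23.9 ± 0.379 to 9.27 ± 0.832 FPKM.

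Glutathione transferases, which attach glutathione to other compounds, were lower in 6 of 12 cases tested and higher in 3 (median -0.15). MGST1, a microsomal transferase, rose 5.01-fold from 0.641 ± 0.0493 to 3.21 ± 0.246 FPKM and GSTM3 rose 1.27-fold. GSTCD fell 2.17-fold from 4.16 ± 0.240 to 1.92 ± 0.0838 FPKM, and PTGES, a prostaglandin E synthase of the same microsomal family, fell 1.93-fold. GSTP1, the most abundant of the list and outside the rule for named genes, was lower at 144 ± 1.16 against 170 ± 3.29 FPKM (limma adjusted p = 2.71e-05). GSTM1, GSTM5, GSTA1 and GSTT1 are absent from the deposited table.

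Glutaredoxins and glyoxalases, which use glutathione as a cofactor, were listed with the esterase gene ESD. In that list 5 of 7 genes were higher and 2 lower (median 0.32). ESD, outside the rule for named genes, was among the higher (log2 change 0.38). GLRX2 rose 3.07-fold from 4.27 ± 0.230 to 13.1 ± 0.249 FPKM and GLRX3 rose 1.80-fold from 15.8 ± 0.0743 to 28.4 ± 0.939 FPKM. GLO1, glyoxalase 1, fell 1.57-fold from 68.4 ± 0.910 to 43.4 ± 0.222 FPKM, and the mitochondrial iron-sulfur glutaredoxin GLRX5 fell 1.40-fold, with 18.2% of its exon bases in genes of the opposite strand.

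Of the remaining peroxidases and dismutase partners only 3 were tested. CCS, the chaperone that loads copper into SOD1, rose 1.64-fold from 9.99 ± 0.410 to 16.4 ± 1.11 FPKM, while SOD1 itself was lower. Of the exon bases of CCS, 10.6% lie in CCDC87 on the opposite strand. GPX7, like GPX8 a peroxidase of the endoplasmic reticulum without selenocysteine, fell 1.70-fold from 14.5 ± 0.814 to 8.56 ± 0.891 FPKM. The secreted GPX3 did not pass, at 2.72 ± 0.187 and 2.72 ± 0.0753 FPKM. GPX2, GPX6 and SOD3 were below the minimum level.

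The list of selenoprotein synthesis, which serves GPX1 and GPX4, had 3 of 6 tested members higher and 1 lower (median 0.06). SEPHS2, selenophosphate synthetase and itself a selenoprotein, rose 2.60-fold from 29.7 ± 0.348 to 77.4 ± 1.01 FPKM, and EEFSEC, the dedicated elongation factor, rose 1.19-fold from 6.63 ± 0.250 to 7.89 ± 0.466 FPKM. RUVBL1 on the opposite strand covers 15.3% of the EEFSEC exon bases. SEPHS1 fell 1.23-fold. The SECIS-binding gene SECISBP2 did not pass, at 5.33 ± 0.0809 and 5.15 ± 0.213 FPKM.

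A list added after the values were seen takes in each gene with a selenocysteine codon in GENCODE 29, 25 genes of which 18 were tested. Of these 9 were higher, 7 lower and 2 did not pass (GPX3 and SELENOF); the median was 0.14. The called share, 16 of 18, stands beside 80.8% of all genes tested, with 45.1% higher and 35.7% lower. TXNRD1, the cytosolic thioredoxin reductase, had the largest rise, 10.3-fold from 43.4 ± 1.20 to 446 ± 4.81 FPKM, and GPX1 the largest fall. Chosen after their values were seen, SELENOH and MSRB1 fell 2.54-fold and 2.63-fold, and SELENOS and SELENOM, of the endoplasmic reticulum, rose 2.19-fold and 2.10-fold.

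Around catalase, genes of peroxisomal import and oxidation had 7 of 13 tested members higher and 3 lower (median 0.27). PEX6, an ATPase that recycles the import receptor, rose 2.44-fold from 9.08 ± 0.155 to 22.1 ± 0.738 FPKM. PEX10, a ubiquitin ligase of the import machinery, rose 2.52-fold from 4.07 ± 0.363 to 10.2 ± 0.419 FPKM; RER1 on the opposite strand covers 39.1% of its exon bases. ACOX2, the peroxisomal oxidase of branched chains and bile acid intermediates, fell 7.81-fold from 2.69 ± 0.462 to 0.345 ± 0.104 FPKM.

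**Figure D4:**
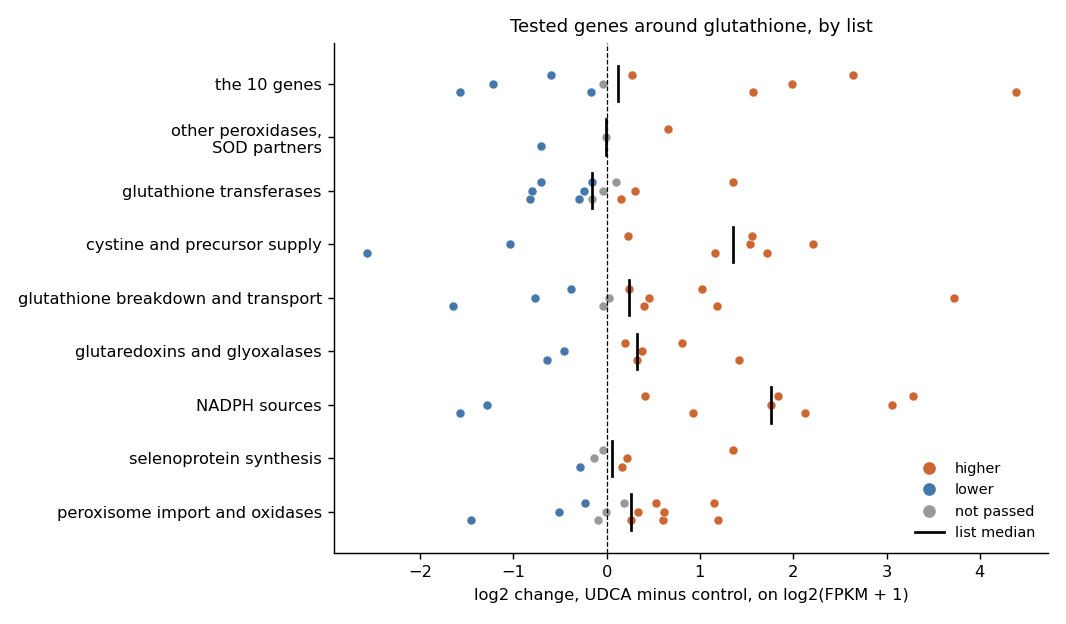
Log2 change, UDCA minus control, of each tested gene in the 8 lists and of the 10 genes, coloured by the limma call, with a bar at each list's median. The medians of the supply (1.35) and NADPH (1.77) lists lie to the right, while each list, the NADPH one included, has genes on both sides of 0.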

How the data were processed

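Polyadenylated RNA was made into Illumina TruSeq libraries, per the labels' protocols. HISAT2, Bowtie2 2.0.6 and GRCh38 stand in the submitters' processing notes without a role. Counting program and strand setting: not given in the sources used here. Reads of genes that overlap on opposite strands can thus not be separated. FPKM is the unit of the values the authors deposited. The unit was inferred from the values: multiplied by the merged exon length in GENCODE 29, 100% of them are whole multiples of 1 step per library (tolerance 0.01 reads), and the positions of all 33890 genes equal those of GENCODE 29, the source of symbols. Where a symbol had more than 1 gene identifier, the one with most reads was used.

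The main test was limma-trend (limma 3.58.1, R 4.3.3) on log2(FPKM + 1), 2-sided, with the group as the only term, a minimum of 1 FPKM reached in 3 or more of 6 libraries, and Benjamini-Hochberg adjustment at 0.05. It was also run on simulated data in which few genes changed, unlike these data, so that run is no support for the calls here. Tables, ratios and alignments used Python 3.11.15, pandas 2.3.3, scipy 1.17.1 and Biopython 1.88. The members and lists were chosen with earlier results of these data known. Named beyond the 10 genes are up to 2 called genes per list and direction with at least 2 FPKM, and the 3 genes nearest to the largest rise and fall; other names are marked as outside this rule, cover a count of 5 or fewer, or belong to the added selenocysteine-codon list, whose names were chosen after their values were seen. One gene that the rule names is not reported here. Alternatives were 3 scalings, another pseudocount, other filters, voom, a replicate block and leaving out each library.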

Additional observations from a re-analysis of the deposited data

How the results depend on the processing

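Under 14 alternatives, 9 of the 10 genes kept their direction and their call: log2 changes ranged from 4.30 to 5.19 for SOD2, 2.53 to 2.77 for GCLM, 1.87 to 2.04 for GSR, 1.47 to 1.77 for GCLC, 0.16 to 0.34 for GPX4, -0.29 to -0.12 for SOD1, -0.71 to -0.57 for CAT, -1.33 to -1.21 for GSS and -1.69 to -1.50 for GPX1. GPX8 was the exception: it was called lower with median-ratio scaling (-0.14) and quantile normalization (-0.13), and leaving out 1 library gave -0.062 to 0.012, the sign turning without control replicate 2; the cause was not tested. Median-ratio scaling moved the median of all genes tested from 0.10 to -0.01 and the calls from 6491 higher and 5133 lower to 5755 higher and 5873 lower. With a minimum of 5 FPKM fewer genes are tested, and 7684 were called (4324 higher and 3360 lower), 6 of the peroxisome list among them. Leaving out 1 library at a time gave 10257 to 10548 calls (5423 to 6284 higher and 3987 to 4998 lower). The 7 log2 ratios of gene pairs kept their sign under each of 7 alternatives, with exact permutation p from 0.1 to 0.2.

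The replicate number was fitted as a block as well. Deviations of same-numbered libraries correlated at 0.0143, -0.00119 and 0.00725, so no effect shared by same-numbered libraries was seen. Whether they were paired is not given in the labels. The replicate block gave 11503 calls and changed no call among the 10 genes. The least covered of the 10 genes was SOD2 in control, with 1084 reads in all.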
